A study of Mus musculus with 22 samples.

Results

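The NR4A nuclear receptors are a family of 3 genes, Nr4a1, Nr4a2 and Nr4a3, out of 11807 genes named on the array. They were found by the platform's annotation of the probe sets. Of a gene's probe sets, the brightest on average across the 22 arrays represents it, and the second probe sets of Nr4a2 and Nr4a3 serve as a check. Nr4a1 had a single probe set, so 5 probe sets carry the family.

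RNA of scraped mouse aortic intima was hybridised to 22 arrays in 6 groups. Aortas of wild-type C57BL/6 mice were opened and kept for 4 h in DMEM with 1% serum. The medium held bacterial lipopolysaccharide (LPS, 4 ng/mL, n = 3), oxidized low-density lipoprotein (oxLDL, 50 µg/mL, n = 3), oxidized palmitoyl-arachidonoyl-phosphocholine (oxPAPC, 50 µg/mL, n = 3), or no addition (n = 3, here the medium group). Fresh intima, never incubated, came from ApoE-knockout mice (n = 4) and wild-type mice (n = 6), all 4 weeks old and on a C57BL/6 background. All mice were on chow. The age of the mice behind the incubated aortas and the number of animals per array are not given in the labels. The design sets hyperlipidemic intima before lesions form against normolipidemic intima, and 3 inflammatory stimuli against medium. Hyperlipidemia and the loss of ApoE go together in this comparison, and incubated aortas have no circulating blood or flow.

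NR4A receptors are orphan nuclear receptors whose ligand pocket is closed by bulky side chains, so their activity is set mainly by how much receptor the cell makes. They are immediate-early genes: cAMP, calcium, growth factors, inflammatory signals and mechanical stress switch them on within an hour or so, without new protein synthesis. CREB, bound to cAMP response elements (CREs) near the start site, is the best known driver. The receptors bind DNA as monomers, as dimers or, for Nr4a1 and Nr4a2, with the retinoid X receptor, and in vessel wall cells they are known for restraining inflammatory and proliferative genes.

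The promoter windows of the 3 genes are shown because the members share an element there that the choice of genes did not use. The sequences are RefSeq's, of assembly GRCm38.p6, from 250 bases before to 50 bases after the annotated start site. They are the window of Nr4a1 at chr15:101266596-101266895 on the plus strand, of Nr4a2 at chr2:57123954-57124253 on the minus strand and of Nr4a3 at chr4:48045055-48045354 on the plus strand. Capitals mark TGACG, the CRE core, on either strand, so that a match on the opposite strand reads CGTCA.
Nr4a1: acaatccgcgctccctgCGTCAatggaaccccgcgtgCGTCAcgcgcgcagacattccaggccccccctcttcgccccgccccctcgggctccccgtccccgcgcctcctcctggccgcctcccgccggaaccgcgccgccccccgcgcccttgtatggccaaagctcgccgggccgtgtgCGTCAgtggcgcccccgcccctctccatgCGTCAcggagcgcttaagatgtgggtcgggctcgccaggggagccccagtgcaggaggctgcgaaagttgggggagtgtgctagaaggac
Nr4a2: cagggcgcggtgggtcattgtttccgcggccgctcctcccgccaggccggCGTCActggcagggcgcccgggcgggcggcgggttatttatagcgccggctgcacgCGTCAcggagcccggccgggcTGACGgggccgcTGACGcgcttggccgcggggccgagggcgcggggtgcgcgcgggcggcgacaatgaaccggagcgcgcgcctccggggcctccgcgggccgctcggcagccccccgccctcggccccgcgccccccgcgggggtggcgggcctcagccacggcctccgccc
Nr4a3: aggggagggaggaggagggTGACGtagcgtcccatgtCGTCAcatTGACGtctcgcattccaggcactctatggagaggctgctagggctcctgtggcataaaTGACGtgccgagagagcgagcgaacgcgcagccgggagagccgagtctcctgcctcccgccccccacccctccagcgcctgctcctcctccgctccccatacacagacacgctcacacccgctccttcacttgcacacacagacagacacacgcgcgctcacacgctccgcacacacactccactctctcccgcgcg
Each window held 4 matches. In Nr4a1 they began 233, 213, 69 and 40 bases before the start site, in Nr4a2 200, 144, 123 and 111 bases, and in Nr4a3 231, 213, 205 and 147 bases. At least 1 match was present in 20.8% of the 32841 windows searched, and at least 4 in 76 windows, or 0.231%. The count of 4 was chosen after the members' matches had been seen. The windows were also rich in G and C (72.3% in Nr4a1, 81.7% in Nr4a2 and 64.7% in Nr4a3, against a median of 52.7% over all windows). TGACG itself holds a CG, and windows of like composition were not compared.

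The full palindromic CRE, TGACGTCA, was not found in any of the 3 windows and occurred in 1.79% of all windows. No match was found to TGANTCA, the AP-1 site (7.81% of windows), to AAAGGTCA, the element that NR4A monomers bind (1.51%), or to the CArG box of serum response factor (1.63%). The GC box GGGCGG was matched 3 times in Nr4a1, 5 times in Nr4a2 and once in Nr4a3, and 35.7% of all windows held at least 1. The letters TATAAA were found once in the window of Nr4a2, on the strand opposite to the gene, and in 13.6% of all windows. Both strands were searched for each motif, overlaps between motifs were allowed, and a match describes these letters and not a bound site. Of 24 other CREB-responsive early genes, 18 had a window. At least 1 TGACG was present in 16 of them, 3 was the highest number, and 4 windows held the full CRE.

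**Figure D1:**
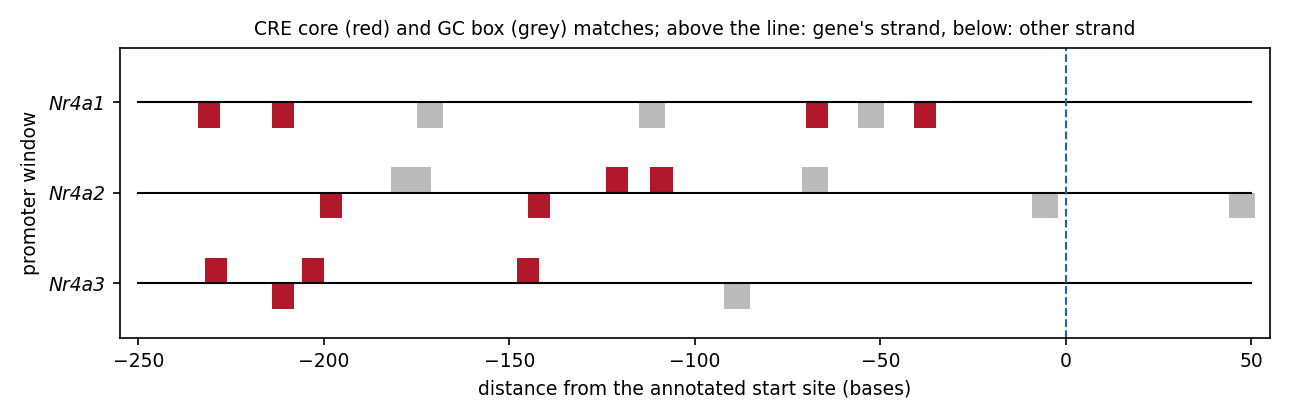
Matches to the CRE core TGACG (red) and the GC box GGGCGG (grey) in the promoter windows of the 3 NR4A genes, plotted by distance in bases from the annotated start site (dashed line). Matches above a line lie on the gene's own strand and matches below it on the opposite strand. Each gene has 4 CRE cores, all of them before the start site.

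The values are log2 signals, so a difference of 1 is a 2-fold change. Arrays of 1 group correlated at r = 0.9771 to 0.9907 over all genes, and array medians lay between 5.227 and 5.392. Of 16 endothelial markers, 15 lay above the 40th percentile of the array on at least 1 array, the exception being Robo4. So did all 14 smooth muscle markers and 14 of 15 macrophage markers, of which Itgam was the exception. Several macrophage markers did so on few arrays: Adgre1 on 4, Cd14 and Fcgr1 on 5, and C1qa and Laptm5 on 11. Csf1r, Tyrobp, Fcer1g and Lyz2 did so on all 22. Markers of other cell types were thus present beside those of the labelled endothelium. In such bulk samples fewer cells of a type and less RNA per cell cannot be told apart. The small number of arrays limits the precision of every value. The p-values speak only of differences between arrays, which may be technical.

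Fresh intima, whether ApoE-knockout or wild-type, carried Nr4a1 and Nr4a2 signal above the 40th percentile on all 10 arrays, and no member passed the test between the genotypes. Nr4a1 (also known as Nur77) measured 5.21, 5.88, 5.05 and 5.32 in the 4 knockout arrays. Its wild-type arrays had a lowest value of 4.73, a median of 5.25 and a highest of 5.87. The groups overlapped over nearly their whole range, and the difference was 0.13 ± 0.24 (SE of the limma fit; adjusted p = 0.8; 95% interval −0.39 to 0.65). Nr4a2 (Nurr1) measured 6.62, 6.21, 6.41 and 5.28 in knockout intima. Wild-type intima ranged from 5.47 to 5.86 with a median of 5.57. Replicates 3, 4 and 5 of the knockout thus lay above every wild-type array, and replicate 6 lay below them all. The difference of 0.52 ± 0.22 did not pass the adjustment (adjusted p = 0.242). The second Nr4a2 probe set gave −0.09 ± 0.14 (adjusted p = 0.762), with knockout values of 5.58, 5.38, 5.32 and 4.95 inside or below the wild-type range of 5.13 to 5.68.

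Nr4a3 (NOR-1) was below the 40th percentile of the array on all 10 fresh arrays and so did not enter the fit. It measured 3.98, 4.19, 4.24 and 4.46 in knockout intima. In wild-type intima it ranged from 4.20 to 4.62 with a median of 4.33. The difference of −0.14 had a two-sided exact permutation p of 0.267, where 210 splits allow a smallest p of 0.00476. Among all 7264 genes tested, 0.427% were called at an adjusted p under 0.05, 0.138% higher and 0.289% lower. Smooth muscle markers stood higher in knockout than in wild-type arrays (median 0.45), although limma called none of 14 (10 at an unadjusted p under 0.05). With their mean in the model the difference was −0.44 ± 0.24 for Nr4a1 (adjusted p = 0.576) and 0.50 ± 0.32 for Nr4a2 (adjusted p = 0.624).

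Incubation in medium alone went with the largest difference measured for each member. Nr4a1 and Nr4a2 rose over fresh wild-type intima, and for each of the 3 genes every medium array lay above every fresh wild-type array. Nr4a1 measured 7.50, 7.93 and 7.84 in medium (mean 7.76 ± 0.23, SD, n = 3), against a mean of 5.23 ± 0.45 in fresh wild-type intima (SD, n = 6). The rise was 5.75-fold (log2 2.52 ± 0.25, adjusted p = 1.24e-05). Its lowest fresh values, 4.73 and 4.76, lay just above the 40th percentiles of their arrays (4.64 and 4.69), so the size of this rise rests partly on values near background. Nr4a2 measured 7.93, 7.97 and 8.01 in medium, against 5.61 ± 0.14 in fresh wild-type intima (SD, n = 6). Its rise was 5.12-fold (2.36 ± 0.11, adjusted p = 1.61e-07), and the second probe set, at 8.24, 8.18 and 8.57 in medium, rose by 2.93 ± 0.15 (adjusted p = 2.38e-07). The medium values of Nr4a2 were the tightest group of any representative probe set (SD 0.039, n = 3).

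Nr4a3 measured 5.53, 5.63 and 6.55 in medium, against 4.35 ± 0.16 in fresh wild-type intima (SD, n = 6), a difference of 1.55 on the log2 scale. Replicate 11 of the medium group stood well above the other two. Because the fresh arrays lay below the 40th percentile, the gene entered the fit through the medium arrays alone, so no test is given for it and the size of the difference rests on values near background. The second Nr4a3 probe set measured 4.97, 4.58 and 4.89 in medium and 3.03 to 3.29 in fresh wild-type intima (difference 1.68, exact permutation p = 0.0119). This p is the smallest that 3 against 6 arrays allow. The fresh values lay within the lowest 13.3% of their arrays, and the medium value of 4.58 was under its 40th percentile, so this difference too rests on values near background. The calls of Nr4a1 and Nr4a2 stand in a comparison in which 58.7% of 7508 genes were called, 24.3% higher and 34.4% lower, and in which the median gene moved by −0.13. Smooth muscle markers fell in the same comparison, 12 of 14 lower and none higher (median −0.96), and macrophage markers rose, 10 of 11 higher (median 1.31). Of these, C1qa (4.44), Laptm5 (4.53) and Mrc1 (4.28) had fresh wild-type means under the 40th percentile and failed the level filter on the fresh arrays. The filter favours their rise, so the macrophage count and median may be too high. Of 15 endothelial markers 5 were higher and 2 lower (median 0.08, range −2.66 to 1.95). Of 8 fibroblast markers 5 were lower and 2 higher (median −1.05; Col1a1 −3.07), and 4 of 7 blood markers were lower (median −0.46; Alas2 −1.66). With the mean of the smooth muscle markers as a covariate Nr4a1 differed by 3.34 (adjusted p = 0.000204) and Nr4a2 by 2.40 (adjusted p = 0.000131). The part of endothelial, macrophage, fibroblast and blood RNA in these rises was not tested.

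**Figure D2:**
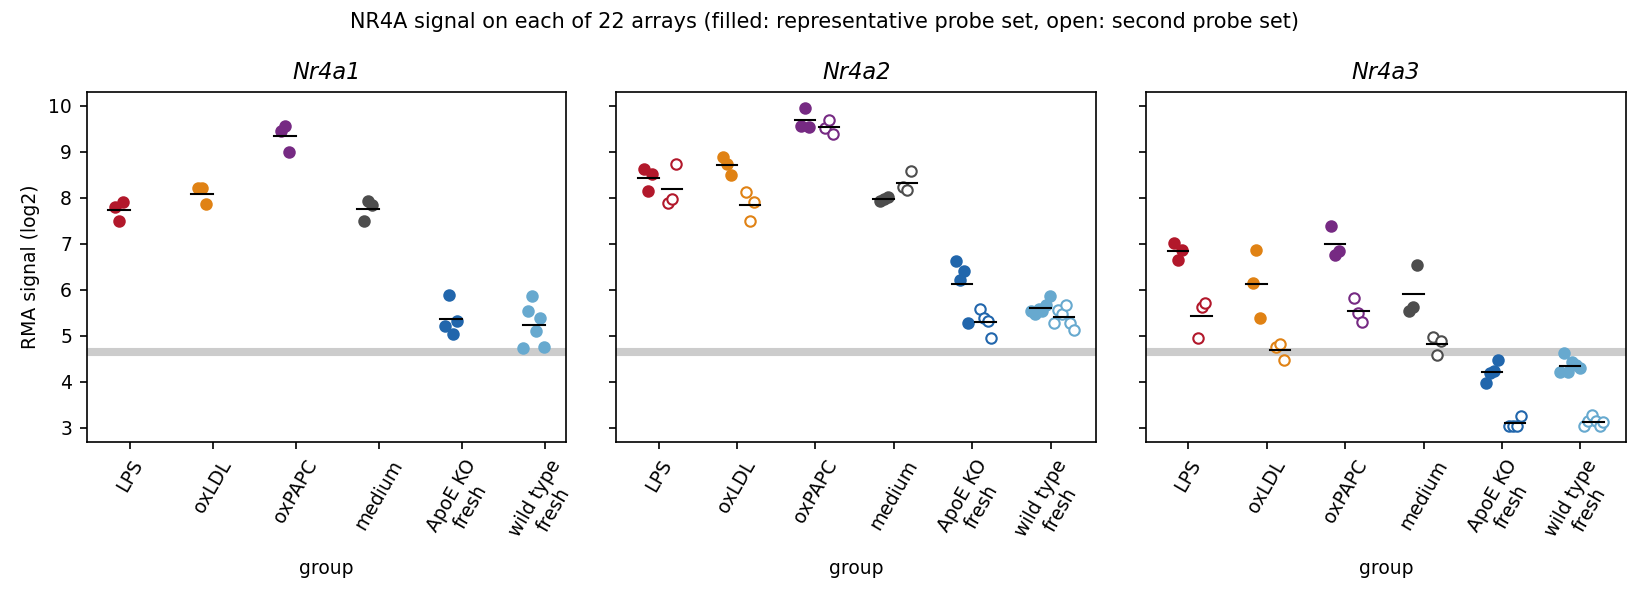
RMA signal (log2) of the NR4A genes on each of the 22 arrays, by group. Filled points are the representative probe set, open points the second probe set, bars the group means, and the grey line marks the range of the arrays' 40th percentiles. The oxPAPC arrays of Nr4a1 (9.0 to 9.56) and Nr4a2 (9.54 to 9.95) sit above all other arrays, and each fresh array of Nr4a3 lies below its own 40th percentile.

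With oxPAPC all 3 members passed the test above medium, while with LPS none did and with oxLDL only Nr4a2 did. The same 3 medium arrays serve all of these comparisons. Nr4a1 measured 9.45, 9.56 and 9.0 with oxPAPC, against 7.50, 7.93 and 7.84 in medium. The gap between the lowest oxPAPC array and the highest medium array was wider than the range of either group. The rise was 2.99-fold (1.58 ± 0.19, adjusted p = 0.000886), the 22nd smallest p of 7550 genes. Nr4a2 measured 9.55, 9.95 and 9.54 with oxPAPC, against 7.93, 7.97 and 8.01 in medium. Its rise of 3.28-fold (1.71 ± 0.17, adjusted p = 0.000504) had the 4th smallest p of the whole comparison. The second Nr4a2 probe set, at 9.50, 9.69 and 9.39 with oxPAPC, rose by 1.20 ± 0.23 (adjusted p = 0.00603).

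Nr4a3 measured 7.38, 6.76 and 6.85 with oxPAPC, against 5.53, 5.63 and 6.55 in medium, a difference of 2.13-fold (1.09 ± 0.35, adjusted p = 0.0448). The groups did not overlap, but replicate 11 of medium came close to the lowest oxPAPC array. Leaving out any other array of these groups ended the call (adjusted p 0.0552 to 0.155, difference 0.90 to 1.21), and without it the difference was 1.41 (adjusted p = 0.0245). The second Nr4a3 probe set, at 5.82, 5.50 and 5.30 with oxPAPC and 4.97, 4.58 and 4.89 in medium, rose by 0.73 ± 0.22 (adjusted p = 0.0334). In this comparison 21.3% of genes were called, 8.34% higher and 12.9% lower.

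The oxPAPC arrays also differed from medium in their cell type markers. Smooth muscle markers were higher, 11 of 14 called (median 1.02), with mean levels per array of 9.22 to 9.65 with oxPAPC and 8.05 to 8.95 in medium. Endothelial markers were lower, 8 of 15 called (median −0.86), at 7.57 to 8.09 with oxPAPC and 8.44 to 8.57 in medium, and 8 of 14 macrophage markers were lower (median −0.74). Of 8 fibroblast markers 1 was higher and 2 lower, and 2 of 7 blood markers were lower. With the mean of these smooth muscle markers in the model the difference was 0.98 ± 0.27 for Nr4a1 (adjusted p = 0.16), 1.43 ± 0.29 for Nr4a2 (adjusted p = 0.103) and −0.12 ± 0.46 for Nr4a3 (adjusted p = 0.933). In that fit limma called 0 of 7550 genes, while 1049 had an unadjusted p under 0.05, and the standard errors were 1.77 times as large in the median.

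With LPS no member passed the test in limma, and 2 of the 3, Nr4a2 and Nr4a3, had an unadjusted p under 0.05. Nr4a1 measured 7.80, 7.49 and 7.91 with LPS, inside the medium range but for the lowest array (difference −0.02 ± 0.19, adjusted p = 0.951; 95% interval −0.44 to 0.39). Nr4a2 measured 8.63, 8.14 and 8.50 with LPS, all above the medium arrays, and its difference of 0.45 ± 0.17 missed the threshold (adjusted p = 0.11; interval 0.08 to 0.83). Its second probe set gave 7.87, 7.98 and 8.73 with LPS, which overlapped medium (−0.14 ± 0.23, adjusted p = 0.743). Nr4a3 measured 7.02, 6.64 and 6.86 with LPS, again above all medium arrays, with a difference of 0.94 ± 0.35 (adjusted p = 0.109; interval 0.17 to 1.70). The second Nr4a3 probe set measured 4.96, 5.63 and 5.72 with LPS, and its lowest array lay level with the highest medium array (0.63 ± 0.22, adjusted p = 0.0862). Among all genes 9.05% were called with LPS, 3.36% higher and 5.68% lower. Smooth muscle markers were higher with LPS than in medium (3 of 14 called, median 0.72), and with their mean in the model the differences were −0.46 (Nr4a1), 0.25 (Nr4a2) and 0.05 (Nr4a3), with adjusted p-values of 0.29 to 0.953. Of the endothelial markers 4 of 15 were lower, and of the macrophage markers 4 of 14 were lower and 1 higher.

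With oxLDL the probe sets of Nr4a2 did not move together. The representative measured 8.88, 8.73 and 8.49 with oxLDL, against 7.93, 7.97 and 8.01 in medium, a rise of 1.66-fold (0.73 ± 0.17, adjusted p = 0.0431). The second probe set measured 8.12, 7.50 and 7.90 with oxLDL, against 8.24, 8.18 and 8.57 in medium, and pointed the other way (−0.49 ± 0.23, adjusted p = 0.243). The mean of the probe sets gave 0.12 (adjusted p = 0.723), and the call was lost when any 1 array of either group was left out (adjusted p 0.0576 to 0.135). Nr4a1 measured 8.20, 8.20 and 7.85 with oxLDL (0.33 ± 0.19, adjusted p = 0.348). Nr4a3 was scattered over 6.16, 6.85 and 5.38 with oxLDL, the widest group of any member, and overlapped medium (0.23 ± 0.35, adjusted p = 0.737). Of 7550 genes 2.81% were called with oxLDL, 0.742% higher and 2.07% lower. The median smooth muscle marker differed by 0.63 with oxLDL (none of 14 called in limma, 7 at an unadjusted p under 0.05). With their mean in the model the representative probe set of Nr4a2 gave 0.56 ± 0.22 (adjusted p = 0.262).

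**Figure D3:**
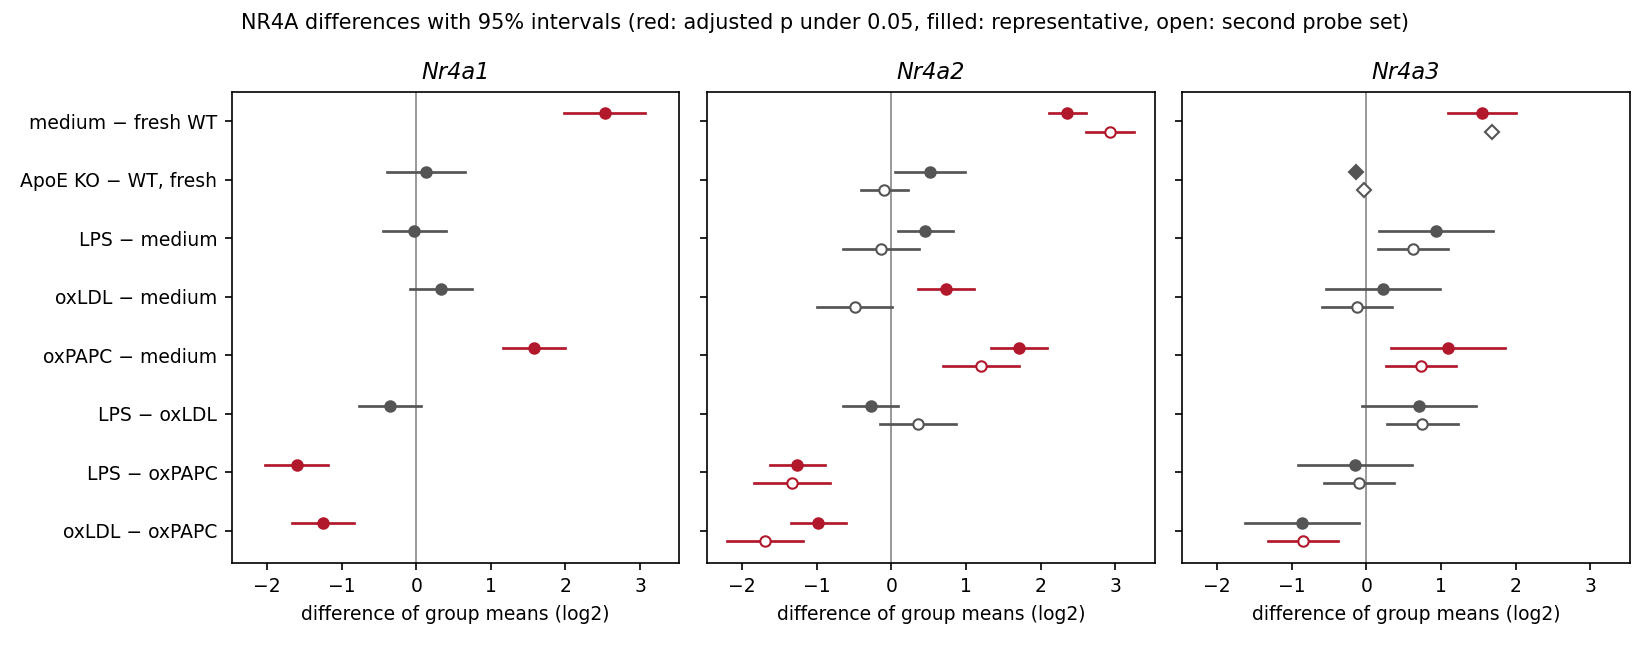
Differences of group means (log2) with 95% intervals for each NR4A gene in 8 comparisons. Red marks an adjusted p under 0.05, filled circles the representative and open circles the second probe set, and diamonds stand for probe sets below the level filter, which have no interval. Nr4a3 in medium minus fresh wild type passed that filter through the medium arrays alone, so its red mark there is not to be read as a test. Nr4a1 and Nr4a2 lie above 0 for oxPAPC minus medium and below 0 for LPS minus oxPAPC and oxLDL minus oxPAPC, and the 2 probe sets of Nr4a2 fall on opposite sides of 0 for oxLDL minus medium.

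Direct comparisons of the stimuli separated oxPAPC from the others for Nr4a1 and Nr4a2, and they do not use the medium arrays for the difference itself. Nr4a1 was lower with LPS than with oxPAPC by 1.60 on the log2 scale (−1.60 ± 0.19, adjusted p = 0.000698), and lower with oxLDL than with oxPAPC (−1.25 ± 0.19, adjusted p = 0.0032). Nr4a2 was likewise lower with LPS (−1.26 ± 0.17, adjusted p = 0.00142) and with oxLDL (−0.98 ± 0.17, adjusted p = 0.00604) than with oxPAPC. The second Nr4a2 probe set gave −1.33 ± 0.23 (adjusted p = 0.00544) for LPS and −1.69 ± 0.23 (adjusted p = 0.00233) for oxLDL. All 3 oxPAPC arrays lay above every LPS and oxLDL array on each of these probe sets. Between LPS and oxPAPC 8.65% of all genes were called, 4.69% higher and 3.96% lower with LPS. Between oxLDL and oxPAPC 12.4% were called, 7.8% higher and 4.57% lower with oxLDL.

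Between the stimuli the smooth muscle markers had medians of −0.27 for LPS against oxPAPC, where none of 14 was called (1 at an unadjusted p under 0.05), and −0.37 for oxLDL against oxPAPC, where 1 was called lower. Endothelial markers also moved: 3 of 15 were higher and 1 lower with LPS than with oxPAPC (median 0.45), and 5 were higher with oxLDL than with oxPAPC (median 0.69). Their mean levels per array were 7.94 to 8.34 with LPS, 8.13 to 8.41 with oxLDL and 7.57 to 8.09 with oxPAPC, so the oxLDL and oxPAPC arrays did not overlap. Their part in the NR4A differences was not tested. With the smooth muscle mean in the model Nr4a1 differed by −1.44 (adjusted p = 0.0014) for LPS and −1.02 (adjusted p = 0.0169) for oxLDL, and Nr4a2 by −1.18 (adjusted p = 0.00532) and −0.87 (adjusted p = 0.033). oxLDL and oxPAPC were given at the same mass per volume, which does not make their content of active phospholipid equal.

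For Nr4a3 the LPS and oxPAPC arrays overlapped (7.02, 6.64 and 6.86 with LPS, 7.38, 6.76 and 6.85 with oxPAPC), and the difference was −0.16 ± 0.35 (adjusted p = 0.822; 95% interval −0.92 to 0.61). oxLDL against oxPAPC gave −0.86 ± 0.35 (adjusted p = 0.125) on the representative probe set and −0.85 ± 0.22 (adjusted p = 0.0249) on the second. Without oxLDL replicate 15 the representative gave −1.23 (adjusted p = 0.0456). Between LPS and oxLDL no member was called by limma (Nr4a1 −0.35, Nr4a2 −0.28, Nr4a3 0.71; adjusted p 0.272 to 0.38), none had an unadjusted p under 0.05, and 5.07% of all genes were called, 2.21% higher and 2.86% lower.

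Ordered by mean signal, Nr4a1 stood at 9.34 with oxPAPC, 8.09 with oxLDL, 7.76 in medium, 7.73 with LPS, 5.36 in fresh knockout and 5.23 in fresh wild-type intima. Among the neighbours tested, oxPAPC differed from oxLDL, while oxLDL, medium and LPS did not differ from the next group beyond their spread, nor did the fresh groups. Nr4a2 stood at 9.68 with oxPAPC, 8.70 with oxLDL, 8.42 with LPS, 7.97 in medium, 6.13 in fresh knockout and 5.61 in fresh wild-type intima. Again the step from oxPAPC to oxLDL was past the threshold and the steps from oxLDL to LPS and from LPS to medium were not. Nr4a3 stood at 7.00 with oxPAPC, 6.84 with LPS, 6.13 with oxLDL, 5.90 in medium, 4.35 in fresh wild-type and 4.22 in fresh knockout intima, and no step between neighbours among its incubated groups was past the threshold. In each gene the step from the incubated to the fresh groups was tested only for medium against wild type.

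The genes that feed NR4A transcription showed no common direction. The list of inputs holds CREB and its coactivators, the MEF2, NFAT and SRF transcription factors, and kinases and phosphatases above them, and 22 of 27 were on the array. After incubation in medium 5 of 21 tested inputs were higher and 10 lower (median −0.32, all genes −0.13). Among all genes 24.3% were higher and 34.4% lower. The CREB coactivator Crtc2 (0.98 ± 0.12), the MEF2 factor Mef2a (0.97 ± 0.13) and the CREB relative Atf1 (0.94 ± 0.14) rose. The catalytic subunits of protein kinase A, Prkaca (−1.82 ± 0.21) and Prkacb (−1.26 ± 0.21), and the protein kinase D gene Prkd1 (−1.54 ± 0.19) fell.

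With oxPAPC against the same medium arrays 5 of 21 inputs were higher and 3 lower (median 0.08, all genes −0.05). Here 8.34% of all genes were higher and 12.9% lower. Prkacb rose by 1.05 ± 0.26 (adjusted p = 0.0164), Prkaca by 0.88 ± 0.23 (adjusted p = 0.0226) and Mef2c by 0.71 ± 0.21 (adjusted p = 0.0359). The calcineurin subunit Ppp3ca (−0.70 ± 0.18), Crtc2 (−0.66 ± 0.19) and the NF-κB subunit Rela (−0.57 ± 0.18) fell. Smooth muscle markers were lower in medium than in fresh intima (median −0.96) and higher with oxPAPC than in medium (median 1.02). Their part in the differences of the inputs was not tested. With LPS 1 input of 21, Ppp3ca, fell (−0.66 ± 0.18, adjusted p = 0.039), where 5.68% of all genes were lower. With oxLDL limma called none of 21 (2 at an unadjusted p under 0.05; Prkaca 0.62 ± 0.23, adjusted p = 0.154). In the ApoE comparison limma called none of 19 (6 at an unadjusted p under 0.05; Prkacb 0.47 ± 0.16, adjusted p = 0.166). Of all genes 2.81% were called with oxLDL and 0.427% between the genotypes.
Between the stimuli, Prkd2 (−0.99 ± 0.22) and Mef2c (−0.82 ± 0.21) were lower with LPS than with oxPAPC, and Rela was higher with oxLDL than with oxPAPC (0.71 ± 0.18). No input was called between LPS and oxLDL by limma (7 of 21 at an unadjusted p under 0.05; Srf −0.65 ± 0.20, adjusted p = 0.0786). Of all genes 5.07% were called there.

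Other immediate-early genes that respond to CREB rose with incubation and moved in both directions with oxPAPC. In medium against fresh wild type 18 of 19 tested were higher and none lower (median 1.81), against 24.3% and 34.4% of all genes. On the fresh arrays alone 17 early genes passed the level filter, so some of the 19 may have entered through the medium arrays. The largest rises were those of the prostaglandin synthase Ptgs2 (6.27 ± 0.34), the AP-1 subunit Fosb (4.90 ± 0.56) and the stress factor Atf3 (3.61 ± 0.43), all larger than those of the NR4A genes. With oxPAPC against the same medium arrays 2 of 19 were higher and 3 lower (median 0.17), shares near the 8.34% and 12.9% of all genes. The AP-1 subunit Fos rose by 0.92 ± 0.25 (adjusted p = 0.0235) and the small GTPase Gem by 0.77 ± 0.17 (adjusted p = 0.0101). Cebpd, a C/EBP transcription factor (−0.73 ± 0.22), Pde4b, a phosphodiesterase that breaks down cAMP (−0.58 ± 0.19), and Ier2 (−0.54 ± 0.15) fell.

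With LPS the phosphatase Dusp1 fell (−0.50 ± 0.13, adjusted p = 0.0385) and no other early gene was called. Of all genes 3.36% were higher and 5.68% lower with LPS. With oxLDL limma called none of 19 (3 at an unadjusted p under 0.05; Pde4b −0.67 ± 0.19, adjusted p = 0.073), where 2.81% of all genes were called. Dusp1 was lower with LPS (−0.56 ± 0.13) and with oxLDL (−0.49 ± 0.13) than with oxPAPC. Atf3 was lower with LPS than with oxPAPC (−0.61 ± 0.17), and Gem lower with oxLDL than with oxPAPC (−1.04 ± 0.17, adjusted p = 0.00416). In the other direction, Cebpd was higher with LPS (1.12 ± 0.22) and with oxLDL (0.87 ± 0.22) than with oxPAPC, Pde4b was higher with LPS than with oxPAPC (0.68 ± 0.19) and than with oxLDL (0.77 ± 0.19), and Ier2 was higher with oxLDL than with oxPAPC (0.63 ± 0.15). In the ApoE comparison limma called none of 17 (1 at an unadjusted p under 0.05), that being Rgs2, a regulator of G protein signalling (0.70 ± 0.24, adjusted p = 0.173). Only 0.427% of all genes were called there.

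**Figure D4:**
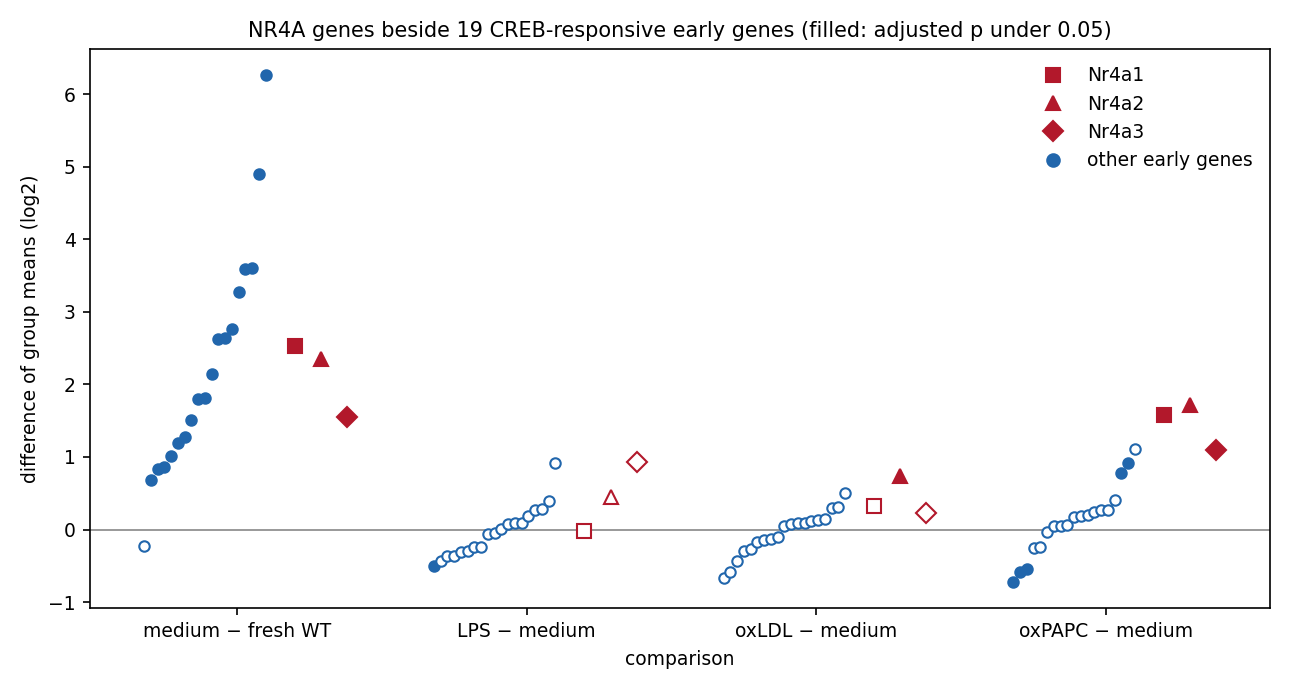
Differences of group means (log2) of the NR4A genes (red) beside 19 other CREB-responsive early genes (blue, sorted within each comparison) in 4 comparisons. Filled symbols have an adjusted p under 0.05. Nr4a3 in medium minus fresh wild type passed the level filter through the medium arrays alone, so its filled symbol there is not to be read as a test. Some of the early genes may have passed in that way too. In medium minus fresh wild type 18 early genes are filled above 0, and in oxPAPC minus medium 2 are filled above and 3 below 0, with Nr4a1 (1.58) and Nr4a2 (1.71) above all 19.

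The next list holds proteins that act with the receptors. Of 16 partners 13 were on the array and 12 were tested. With oxPAPC against medium 3 were higher and none lower (median 0.23), against 8.34% and 12.9% of all genes. These were Rcor1, a corepressor that Nr4a2 recruits (0.90 ± 0.19, adjusted p = 0.00917), and the retinoid X receptors Rxra (0.54 ± 0.14, adjusted p = 0.0233) and Rxrg (0.47 ± 0.12, adjusted p = 0.0199). Rxra was lower in medium than in fresh wild-type intima (−0.98 ± 0.14), as was Bcl2, a survival protein that Nr4a1 binds (−1.15 ± 0.28). The coactivator Ncoa3 (0.57 ± 0.22), the corepressor Trim28 (0.54 ± 0.13) and the demethylase Kdm1a (0.44 ± 0.11) were higher in medium. Cell type markers moved in both comparisons, as given above, and their part in the differences of the partners was not tested.

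Trim28 was lower with LPS than with medium (−0.56 ± 0.13) and than with oxLDL (−0.79 ± 0.13), and higher with oxLDL than with oxPAPC (0.51 ± 0.13). Kdm1a was lower with LPS than with oxPAPC (−0.62 ± 0.14). Limma called none of 12 partners with oxLDL against medium (2 at an unadjusted p under 0.05; Stk11 0.61 ± 0.22, adjusted p = 0.137) or between the genotypes (3 at an unadjusted p under 0.05; Pias4 0.23 ± 0.09, adjusted p = 0.224). The shares of all genes called were 2.81% and 0.427%.

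Reported target genes of the receptors had no shared direction either. The list holds genes described as activated and genes described as repressed, so its median has no single expected sign. Of 22 genes 20 were on the array and 12 passed the level filter on the incubated arrays. With oxPAPC against medium 3 were lower and none higher, against 12.9% and 8.34% of all genes. They were Ccl2, a monocyte chemokine (−1.33 ± 0.34, adjusted p = 0.0192), Birc3, an inhibitor of apoptosis and NF-κB target (−1.27 ± 0.29, adjusted p = 0.0115), and Vcam1, the leukocyte adhesion molecule (−0.95 ± 0.25, adjusted p = 0.0218). Endothelial and macrophage markers were lower in the same arrays, as given above. The part of these marker differences in the 3 falls was not tested.

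With LPS the NF-κB inhibitor gene Nfkbia rose (1.04 ± 0.18, adjusted p = 0.00869) and the scavenger receptor Cd36 fell (−1.44 ± 0.40, adjusted p = 0.0463). Compared with oxPAPC, LPS gave more Birc3 (2.21 ± 0.29), Vcam1 (1.66 ± 0.25) and Nfkbia (1.28 ± 0.18) and less Cd36 (−1.67 ± 0.40), with 5 of 12 targets higher and 1 lower. The shares of all genes were 4.69% higher and 3.96% lower. Compared with oxLDL, LPS gave more Nfkbia (1.48 ± 0.18) and Vcam1 (1.07 ± 0.25). Birc3 (1.16 ± 0.29) and the cyclin Ccnd1 (1.02 ± 0.26) were higher with oxLDL than with oxPAPC, and the cell cycle inhibitor Cdkn1b was lower (−1.12 ± 0.24). Limma called none of 12 with oxLDL against medium (4 at an unadjusted p under 0.05; Ccl2 −1.18 ± 0.34, adjusted p = 0.0773). Of all genes 2.81% were called there, and the oxLDL mean of Ccl2 (3.79) was again near background.

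After incubation in medium 5 of 10 targets were higher and 2 lower than in fresh wild type, against 24.3% and 34.4% of all genes. Cd36 (2.07 ± 0.54), Birc3 (2.0 ± 0.18) and Vcam1 (1.65 ± 0.16) rose, and Cdkn1b (−0.75 ± 0.18) and Ccnd2 (−0.28 ± 0.09) fell. Between the genotypes, Ccnd1 was lower in knockout than in wild-type intima (−0.94 ± 0.16, adjusted p = 0.0417), and the other 9 targets were not called. Of all genes 0.138% were higher and 0.289% lower. The 31 calls of this comparison fell to 1 with the smooth muscle covariate, and to as few as 1 with 1 array left out.

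Within the family, Nr4a1 and Nr4a2 had the closer profiles. Likeness was measured as the root mean square difference between the profiles of 2 genes, each centred on its own mean, so that 0 means equal profiles. It is given as a description, since the arrays share the steps between groups. Over all 22 arrays Nr4a1 and Nr4a2 differed by 0.429, which placed each as the 2nd nearest gene of the other among 7940 genes. Over the 12 incubated arrays they differed by 0.237, and Nr4a2 was the nearest of 7549 genes to Nr4a1. Nr4a3 was the 45th nearest gene to Nr4a1 and the 40th nearest to Nr4a2 over 22 arrays, and the 1724th and 1452nd nearest over the 12 incubated arrays. The incubated ranks stand for differences of 0.641 and 0.590. These are close to the genes' own SDs over the 12 arrays (Nr4a1 0.683, Nr4a2 0.648, Nr4a3 0.616), so a flat profile would lie about as near.

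The other genes nearest to Nr4a1 over 22 arrays were Srxn1, which repairs oxidized peroxiredoxins (0.427), the hexokinase Hk2 (0.431), the thioredoxin reductase Txnrd1 (0.461) and the transcription factor Runx1 (0.481). Nearest to Nr4a2 were Runx1 (0.376), Gclc, the catalytic subunit of the first enzyme of glutathione synthesis (0.476), Txnrd1 (0.490) and Srxn1 (0.506). The profiles of Nr4a1 and Nr4a2 themselves had SDs of 1.57 and 1.54. The differences between oxPAPC and medium were 1.72 ± 0.30 for Srxn1, 1.60 ± 0.21 for Runx1, 1.17 ± 0.17 for Gclc, 0.73 ± 0.13 for Txnrd1 and 0.86 ± 0.31 for Hk2. These genes were picked by their likeness to Nr4a1 or Nr4a2 on the same arrays. Such differences thus follow largely from the choice, and no test is given for them.

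Nr4a3 (SD 1.18) lay nearest to other genes: Fst, the activin antagonist follistatin (0.377), the macrophage growth factor Csf1 (0.462), Pbdc1 (0.463), Hk2 (0.471) and Inhba, an activin subunit (0.477). Over the incubated arrays alone, Zfp503 (0.248) and Bambi (0.252) followed Nr4a2 as nearest to Nr4a1, while the chaperones Hspa2 (0.215) and Hspb8 (0.287) stood on either side of Nr4a1 for Nr4a2. For Nr4a3 the nearest were Hspb7 (0.265), the G protein subunit Gnai1 (0.274) and Fst (0.283).

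**Figure D5:**
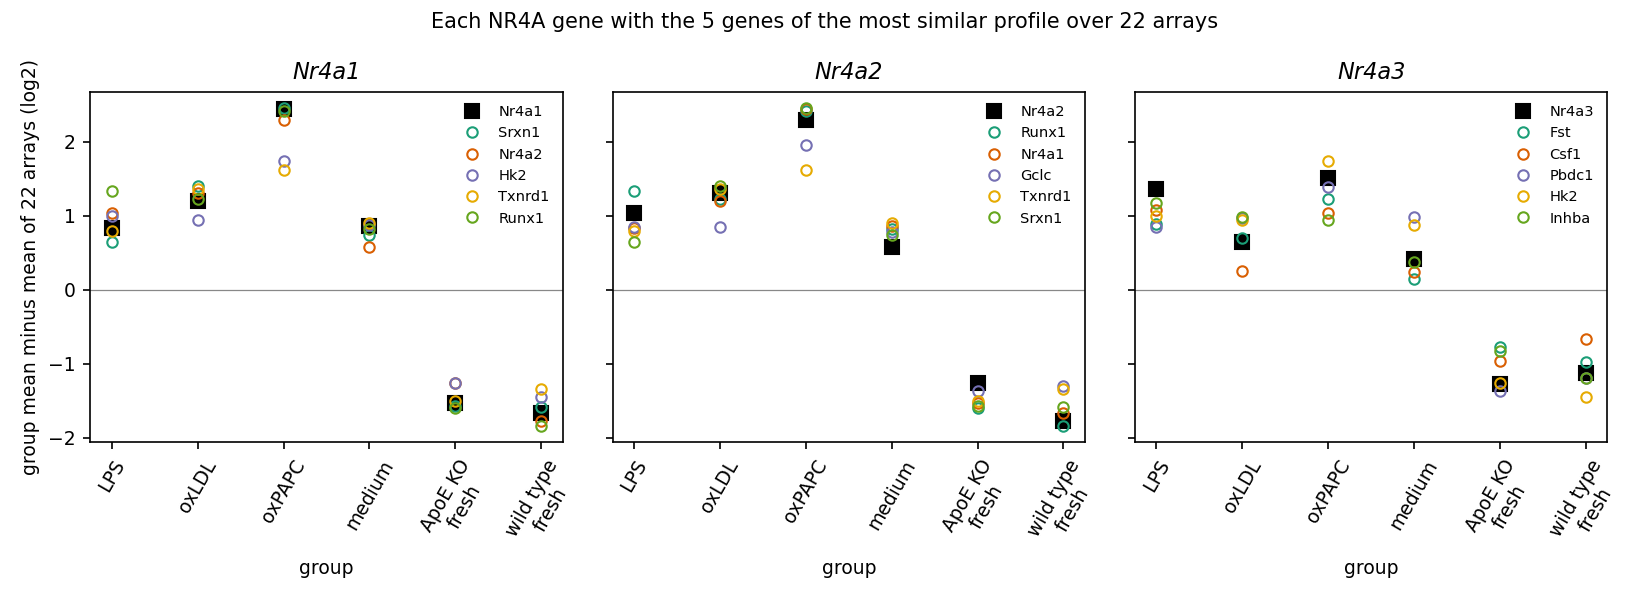
Group mean minus the mean of all 22 arrays (log2) for each NR4A gene (black squares) and the 5 genes with the most similar profile over 22 arrays (open circles), by group. Nr4a1 and Nr4a2 appear in each other's panel, and their highest group mean is oxPAPC, whereas Nr4a3 stands almost as high with LPS (6.84) as with oxPAPC (7.00).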

How the data were processed

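RNA of mouse aortic intima was measured on 22 Affymetrix arrays. The deposited log2 values were made by the authors with RMA (affy), per the submitters' processing notes; versions are not given in the sources used here. RMA quantile normalizes and so hides a shift shared by most transcripts. RNA was accepted from an integrity number of 7.0, per the series' design text, then amplified and labelled.

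Of 22626 probe sets, 18003 carried 1 symbol and named 11807 genes, 287 carried several and 4336 none. Symbols were updated from RefSeq (GRCm38.p6, 17977 probe sets matched). Genes had to exceed the array's 40th percentile in as many arrays as the smallest group held. A gene low in 1 group could thus pass through another, which favours its call and applies to the list and marker counts too. They were fitted with limma 3.58.1 in R 4.3.3 (lmFit, eBayes, two-sided, Benjamini-Hochberg over all genes tested, called at an adjusted p under 0.05): 7264 genes on the 10 fresh arrays, 7508 on medium and fresh wild type, and 7550 on the 12 incubated arrays, which share 1 estimate of the spread. The 3 stimuli share their medium arrays. Each ± is the standard error of the fit unless SD is written. Members below the filter were tested by exact permutation. The fits were tested on simulated data.

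The members and gene lists were chosen with earlier results of these data known. From each list, up to 3 called genes with the largest rise and 3 with the largest fall are named, or the gene with the smallest p where none was called. Markers are given as counts. Alternatives were the scaling, the level filter, the probe sets, the variance trend, the arrays fitted, a smooth muscle covariate and leaving out each array.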

Additional observations from a re-analysis of the deposited data

Results flagged for a closer look

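On the second Nr4a3 probe set, ApoE-knockout replicate 6 measured 3.26 while the other 3 knockout arrays lay between 3.04 and 3.05, a gap of 0.991 of the group's range. All 4 values are under the 40th percentile of the array. The threshold applied to such gaps is passed by chance in about 1 in 20 groups.

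For Nr4a1 and Nr4a2 the response to oxPAPC differed from those to LPS and oxLDL, tested directly. Nr4a1 differed by −1.60 between LPS and oxPAPC and by −1.25 between oxLDL and oxPAPC, and Nr4a2 by −1.26 and −0.98, with every LPS and oxLDL array below every oxPAPC array.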

How the results depend on the processing

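Of 372 values of the 24 member differences under other settings, 334 kept their direction and their side of the threshold, 17 lost and 3 gained a call and 18 changed sign. The 24 include Nr4a3 in medium against fresh wild type, for which no test is given above. None of the 18 changes of sign passed the threshold. The causes were not tested. With each array left out in turn, the differences ranged as follows. Against fresh wild type, medium gave 2.42 to 2.66 (Nr4a1), 2.33 to 2.41 (Nr4a2) and 1.23 to 1.74 (Nr4a3). Against medium, oxPAPC gave 1.45 to 1.75, 1.58 to 1.78 and 0.90 to 1.41 in the same order of genes, oxLDL gave 0.20 to 0.45, 0.64 to 0.84 and −0.14 to 0.60, and LPS gave −0.15 to 0.10, 0.35 to 0.60 and 0.75 to 1.26. Against oxPAPC, LPS gave −1.77 to −1.48, −1.36 to −1.12 and −0.27 to 0.04, and oxLDL −1.42 to −1.13, −1.07 to −0.85 and −1.23 to −0.49. Knockout against wild type gave −0.04 to 0.26, 0.35 to 0.80 and −0.22 to −0.06. Changes of sign with 1 array left out were those of Nr4a1 with LPS without medium replicate 10 (0.065), medium replicate 11 (0.019) or LPS replicate 4 (0.097), of Nr4a1 in the knockout without replicate 4 (−0.041), of Nr4a3 with oxLDL without replicate 15 (−0.135) and of Nr4a3 between LPS and oxPAPC without oxPAPC replicate 11 (0.035).

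With a smooth muscle covariate, Nr4a1 (0.98) and Nr4a2 (1.43) lost the oxPAPC call and Nr4a2 (0.56) the oxLDL call. Signs changed there for Nr4a1 in the knockout (−0.443) and with oxLDL (−0.040), and for Nr4a3 with oxLDL (−0.516), with oxPAPC (−0.116) and between LPS and oxPAPC (0.171). The second probe set, an alternative chosen after seeing the data, turned Nr4a2 in the knockout (−0.092), with LPS (−0.135), with oxLDL (−0.492) and between LPS and oxLDL (0.357), and Nr4a3 with oxLDL (−0.124), and gave Nr4a3 a call between oxLDL and oxPAPC (−0.85). The mean of the probe sets took the oxLDL call of Nr4a2 (0.12), turned it between LPS and oxLDL (0.039) and called Nr4a3 between oxLDL and oxPAPC (−0.86). Fitting medium and oxLDL alone left Nr4a2 at 0.73 with an adjusted p of 0.0576. Without the level filter Nr4a3 with oxPAPC stayed at 1.09 with an adjusted p of 0.0613. Cyclic loess turned Nr4a1 with LPS (0.063).

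Counts of called genes moved more. In the knockout 31 became 1 to 68 with 1 array left out, 6 without the filter, 77 with all arrays in the fit and 1 with the covariate. For LPS 683 became 235 to 389 and 106 with the covariate. For oxLDL 212 became 23 to 271, 96 in a fit of its own and 16 with the covariate. For oxPAPC 1606 became 738 to 2007, and for medium against fresh wild type 4410 became 2200 with the covariate. In fits of the compared groups alone, 383, 653 and 934 calls between the stimuli became 224, 347 and 549, and with 1 array left out they ranged over 132 to 266, 247 to 1207 and 347 to 1372. No paired analysis was possible because the groups compared share at most 1 replicate number. The 3 arrays per incubated group limit precision, and signals near the 40th percentile limit Nr4a3 and, on some arrays, Nr4a1 in fresh intima.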
